A study of Mus musculus with 10 samples.

Results

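The 8 genes described here supply glutathione, reduce oxidants or encode NRF2 itself: Slc7a11, Gclc, Gclm, Nqo1, Txnrd1, Srxn1, Prdx1 and Nfe2l2. The members were chosen by symbol, and for each the probe set with the highest mean log2 intensity over all arrays was used. All 8 of the 8 symbols were found among the 19938 genes of the table. The genes were followed in type 2 conventional dendritic cells (cDC2, antigen-presenting cells that prime helper T cells) sorted from mouse spleen. Notch2-11cKO SRBC (3 arrays) is cDC2 of CD11c-Cre+ Notch2f/f mice taken 24 hours after an intraperitoneal dose of 200000000 sheep red blood cells (SRBC, used as a particulate antigen). Notch2-11cKO untreated (2 arrays) is the same genotype at steady state. WT SRBC (3 arrays) and WT untreated (2 arrays) are wild-type mice with and without the same treatment. All cells came from spleens digested with Collagenase B and DNase and enriched for CD11c+ cells before the sort. CD11c-Cre acts in every cell that uses the CD11c promoter, which includes other dendritic cells and many macrophages, so the deletion is not limited to cDC2. The Cre status of the WT mice, their age and sex, and whether mice were pooled are not given in the sources used here.

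NRF2, the protein product of Nfe2l2, is a transcription factor that KEAP1 holds in the cytoplasm and marks for degradation until oxidants or electrophiles modify KEAP1. In the nucleus it pairs with small MAF proteins at antioxidant response elements, where BACH1 and BACH2 can take its place and repress the same genes. Its targets import cystine and build glutathione from it, keep thioredoxin and peroxiredoxins reduced, and detoxify quinones and haem products. In dendritic cells these systems are known to buffer the oxidants made during phagocytosis and activation.

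Promoter windows of RefSeq (GRCm38.p6, 250 bases before to 50 after a gene's start) were available for 7 of the 8 members. The windows of 4 are shown, read along each gene's strand. Slc7a11, Nfe2l2 and Prdx1 each had an adjusted p below 0.05 in a limma comparison below. Srxn1 had none, but the widest spread within groups. Gclc also had such a comparison but no window. Capitals mark matches on either strand to 3 motifs: TGACNNNGC, the core of the antioxidant response element; TGANTCA, the AP-1 motif, which overlaps the antioxidant core in many elements; and TGATGNAA, the amino acid response element that ATF4 binds. Slc7a11 lies on chromosome 3 (chr3:50443564-50443863, minus strand), Nfe2l2 on chromosome 2 (chr2:75704614-75704913, minus strand), Prdx1 on chromosome 4 (chr4:116685349-116685648, plus strand) and Srxn1 on chromosome 2 (chr2:152105274-152105573, plus strand).
Slc7a11: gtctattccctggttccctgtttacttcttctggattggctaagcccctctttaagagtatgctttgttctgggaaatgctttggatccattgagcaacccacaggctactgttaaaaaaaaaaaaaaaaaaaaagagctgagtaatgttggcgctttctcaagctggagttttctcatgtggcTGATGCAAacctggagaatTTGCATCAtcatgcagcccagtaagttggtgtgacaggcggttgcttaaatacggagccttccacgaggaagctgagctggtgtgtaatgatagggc
Nfe2l2: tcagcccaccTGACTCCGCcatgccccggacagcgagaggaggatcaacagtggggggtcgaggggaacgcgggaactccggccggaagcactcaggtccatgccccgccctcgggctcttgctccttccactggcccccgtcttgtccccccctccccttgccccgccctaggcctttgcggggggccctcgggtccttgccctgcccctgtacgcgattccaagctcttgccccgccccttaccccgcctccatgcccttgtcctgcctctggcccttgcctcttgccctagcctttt
Prdx1: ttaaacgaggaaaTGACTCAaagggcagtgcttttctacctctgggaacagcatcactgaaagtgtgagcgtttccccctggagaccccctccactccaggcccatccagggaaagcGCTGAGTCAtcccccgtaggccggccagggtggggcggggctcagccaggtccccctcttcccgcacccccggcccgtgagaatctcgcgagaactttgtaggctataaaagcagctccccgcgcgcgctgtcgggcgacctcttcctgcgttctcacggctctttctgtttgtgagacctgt
Srxn1: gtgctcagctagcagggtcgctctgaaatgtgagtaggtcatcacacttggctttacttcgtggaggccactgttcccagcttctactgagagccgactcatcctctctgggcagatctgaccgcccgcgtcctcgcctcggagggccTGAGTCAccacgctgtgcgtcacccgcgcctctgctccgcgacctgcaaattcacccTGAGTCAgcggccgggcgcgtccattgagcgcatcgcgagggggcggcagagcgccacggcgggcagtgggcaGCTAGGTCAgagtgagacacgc

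Counting the start base as 1, the Slc7a11 window held the amino acid response motif at -66 and again on the opposite strand at -47. That window lies inside the Slc7a11 locus (chr3:50364936-50499087) and not at its upstream end. These positions are therefore counted from a start within the locus. Nfe2l2 held the antioxidant core at -240. Prdx1 held an antioxidant core at -133 that overlaps an AP-1 match at -131, and another AP-1 match at -237. Srxn1 held AP-1 matches at -102 and -45 and an antioxidant core at 29. Among the windows not printed, Gclm held the antioxidant core at -134 and Txnrd1, in 1 of its windows, at -92, and Nqo1 held none of the 3 motifs. Over all 32851 windows of the same length, 12.4% held TGACNNNGC, 7.81% held TGANTCA and 3.97% held TGATGNAA. The matches describe letters in these windows and were not tied to binding.

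The array medians lay between 29.5 and 31.7 in linear intensity, and precision is limited by how few arrays each group has. The values below are log2 intensity unless stated otherwise, and differences are in log2 units ± the standard error of the limma fit. "Past the threshold" means a Benjamini-Hochberg adjusted p from limma below 0.05 over all 19938 genes. Notch2 itself, whose level checks nothing here because the labels do not say which stretch Cre removes, averaged 7.61 in Notch2-11cKO SRBC, 8.27 in Notch2-11cKO untreated, 7.26 in WT SRBC and 8.13 in WT untreated. Its probe set was not lower in Notch2-11cKO, with differences of 0.14 ± 0.26 untreated (adjusted p = 0.915) and 0.35 ± 0.21 after SRBC (adjusted p = 0.455). An array in each SRBC group stood apart. Over the 9969 brighter genes, Notch2-11cKO SRBC 3 correlated with the other 2 of its group at r = 0.947 and 0.936, against 0.972 between those, and WT SRBC 1 at r = 0.929 and 0.928, against 0.984. Results that rest on these arrays are given with and without them. Leaving both out was a choice made after seeing the data, and it lowers the estimate of spread by construction.

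The cells carried the dendritic genes Itgax (group means from 9.49 to 10.48) and Sirpa (from 9.72 to 10.62). Of 10 cDC2 markers, 1 was higher past the threshold (Cd209a) and 3 lower (Cd4, Esam and Clec4a4) in untreated Notch2-11cKO, and 2 were higher (Itgam and Cd209a) and 2 lower (Esam and Clec4a4) after SRBC. Esam and Clec4a4 averaged 4.06 and 3.84 in Notch2-11cKO untreated, against 5.90 and 7.92 in WT untreated, whereas Cd209a averaged 10.16 in Notch2-11cKO untreated, against 8.43 in WT untreated. Markers of other cells moved with genotype. Of 12 red pulp macrophage markers, 9 were higher past the threshold in untreated Notch2-11cKO and 8 after SRBC, and 3 rose with SRBC in WT (Vcam1, Spic and C1qc). Adgre1 ran the other way, though not past the threshold. It averaged 7.62 in Notch2-11cKO untreated, against 8.45 in WT untreated, and 8.03 against 8.29 after SRBC. Spic was also below WT after SRBC (8.54 against 8.74). The summed intensity of the 12 markers was 3934 to 4961 in Notch2-11cKO SRBC, 4104 to 4993 in Notch2-11cKO untreated, 1591 to 2332 in WT SRBC and 933 to 1014 in WT untreated. In both Notch2-11cKO groups the highest mean among the 12 was that of Hmox1, itself an NRF2 target described below. It averaged 10.57 in Notch2-11cKO untreated, against 7.39 in WT untreated. Of 8 monocyte markers measured, 5 were higher past the threshold in both genotype comparisons (Treml4 was lower in the untreated one), with sums of 8139 to 8895 in Notch2-11cKO SRBC, 9411 to 10956 in Notch2-11cKO untreated, 1377 to 1778 in WT SRBC and 1493 to 1705 in WT untreated. These linear sums weigh Lyz2 most, at 12.73 in Notch2-11cKO untreated, against 10.05 in WT untreated. In the same groups Vcan (3.67 against 3.68) and Ace (5.47 against 5.30) hardly differed. Of 8 cDC1 markers, 3 were higher in both genotype comparisons, 1 was lower after SRBC and 2 rose with SRBC in WT. Of 5 plasmacytoid dendritic cell markers measured, 2 were higher in untreated Notch2-11cKO and 3 after SRBC. Of 8 neutrophil markers, 1 was higher in untreated Notch2-11cKO and 2 after SRBC. S100a8 rose with SRBC in both genotypes, averaging 8.47 in Notch2-11cKO SRBC, against 5.41 in Notch2-11cKO untreated, and 6.88 in WT SRBC, against 4.03 in WT untreated. S100a9 also had higher means after SRBC in both genotypes. Csf3r had lower ones, at 5.51 against 6.24 in Notch2-11cKO and 4.57 against 5.21 in WT. Ly6g, Camp, Ltf, Retnlg and Mmp8 had every group mean below the median gene's mean level, 5.06. The B and T cell lists had 2 and 1 markers lower in both genotype comparisons and none higher. No marker was listed at 0 in any array. The mean log2 of 28 immediate-early and heat shock genes, which rise during cell isolation among other stimuli, moved with treatment: it was 8.51 to 9.28 in Notch2-11cKO SRBC and 8.48 to 8.76 in WT SRBC, against 9.80 to 9.995 in Notch2-11cKO untreated and 9.99 to 10.1 in WT untreated. The part of such cells and of this stress score in the results below was not tested. In bulk samples, more cells of a type and more RNA per cell cannot be told apart.

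WT untreated cDC2 had the lowest group mean for 7 of the 8 members, all but Nqo1, whose lowest mean was in Notch2-11cKO untreated; over all genes WT untreated was the lowest group for 26.3%. The members followed different paths above that base. Nfe2l2, Prdx1 and the glutathione synthesis genes Gclc and Gclm had higher means in both Notch2-11cKO groups than in either WT group. Slc7a11, Txnrd1 and Srxn1 had their 2 highest means in the 2 SRBC groups, whatever the genotype. The calls past the threshold were fewer: Nfe2l2 between untreated genotypes, Gclc and Prdx1 between genotypes after SRBC, and Slc7a11 in the WT response.

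**Figure D1:**
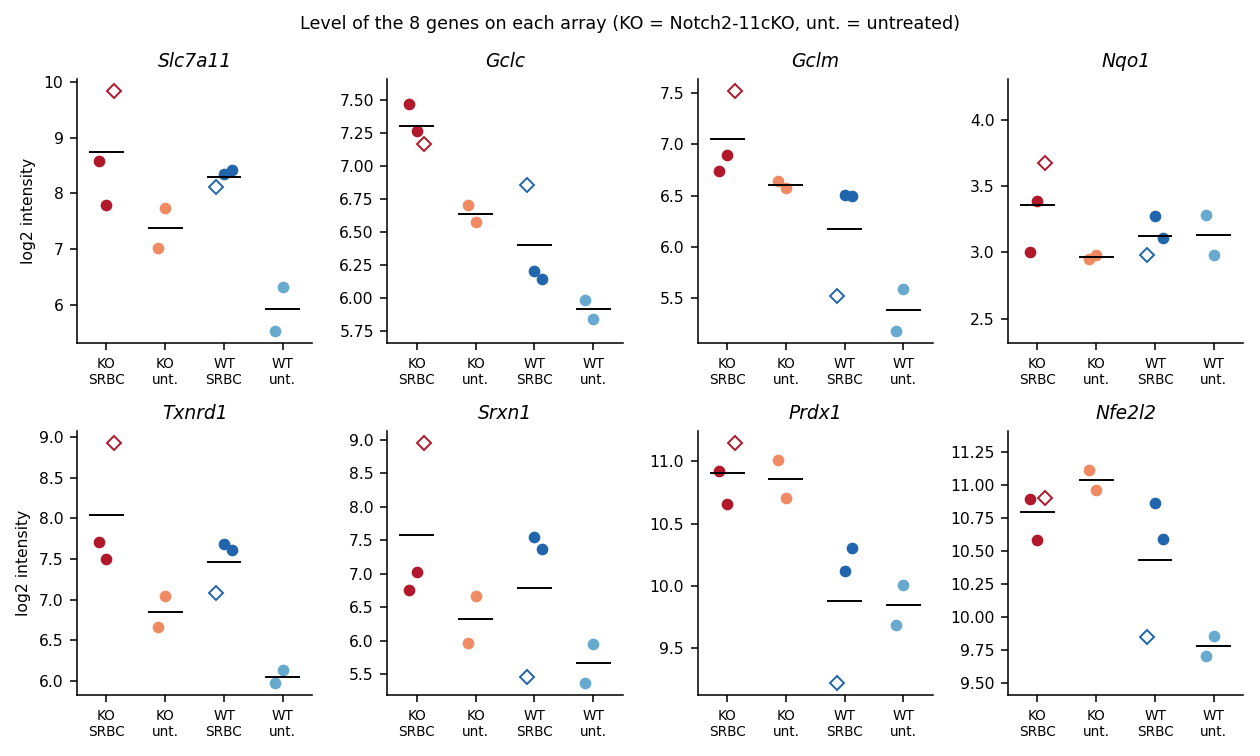
Log2 intensity of the 8 genes (1 panel each, each with its own vertical scale) in every array of the 4 groups; black lines are group means and open diamonds mark the 2 arrays that stood apart, Notch2-11cKO SRBC 3 and WT SRBC 1. WT untreated has the lowest mean in 7 panels, and Slc7a11 spans 5.52 to 9.84 over the 10 arrays.

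Nfe2l2, which encodes the transcription factor NRF2, lies at GRCm38.p6 chr2:75675513-75704663. Its log2 intensity was 11.11 and 10.96 in Notch2-11cKO untreated and 10.90, 10.58 and 10.90 in Notch2-11cKO SRBC. It was 9.85, 10.86 and 10.59 in WT SRBC and 9.70 and 9.86 in WT untreated. Both untreated Notch2-11cKO arrays thus stood above both untreated WT arrays, whereas the SRBC groups overlapped. Nfe2l2 was 2.39-fold higher in Notch2-11cKO untreated than in WT untreated (1.26 ± 0.28, adjusted p = 0.0228, n = 2 each), and this call was lost when any 1 of the 4 untreated arrays was left out (adjusted p from 0.0989 to 0.182). After SRBC the genotypes differed by 0.36 ± 0.23 (adjusted p = 0.477), by 0.065 without WT SRBC 1 and by 0.012 without both arrays that stood apart. The SRBC response was -0.25 ± 0.25 in Notch2-11cKO (adjusted p = 0.808) and 0.65 ± 0.25 in WT (adjusted p = 0.208). The difference between those responses was -0.90 ± 0.36 with an unadjusted p of 0.0285 and an adjusted p of 0.704, so it did not pass the threshold. With the 2 arrays that stood apart left out, as chosen after seeing the data, the difference between the responses was -1.24 (adjusted p = 0.0104). In that fit 3.03% of all genes passed for the same difference, against 0.0201% in the main fit. The WT response was then 0.94 (adjusted p = 0.00193), where 11.5% of genes passed, against 3.79% in the main fit.

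Slc7a11, at chr3:50364936-50499087, encodes the cystine transporter xCT that brings in the cysteine precursor limiting glutathione synthesis. Log2 intensity was 8.59, 7.79 and 9.84 in Notch2-11cKO SRBC and 7.01 and 7.74 in Notch2-11cKO untreated. It was 8.12, 8.35 and 8.43 in WT SRBC, against 5.52 and 6.31 in WT untreated. In each genotype every SRBC array exceeded every untreated array, though in Notch2-11cKO by as little as 7.79 against 7.74. The WT response was 5.21-fold (2.38 ± 0.48, adjusted p = 0.0205, n = 3 and 2). Leaving out 1 of the arrays WT SRBC 2, WT SRBC 3, WT untreated 1 or WT untreated 2 ended that call (adjusted p = 0.0597, 0.0661, 0.243 and 0.0714), and with the stress score, which itself separates SRBC from untreated arrays, as a covariate the difference was -0.23. The Notch2-11cKO response was 1.37 ± 0.48 (adjusted p = 0.345), and the difference between the responses was -1.02 ± 0.68 (adjusted p = 0.904). Between untreated genotypes the difference was 1.46 ± 0.52 (adjusted p = 0.181), with no overlap of the 2 groups. After SRBC it was 0.44 ± 0.43 (adjusted p = 0.684), and -0.20 without the 2 arrays that stood apart.

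Gclc, at chr9:77754535-77794489, encodes the catalytic subunit of glutamate-cysteine ligase, the rate-limiting enzyme of glutathione synthesis. The log2 intensities were 7.47, 7.26 and 7.17 in Notch2-11cKO SRBC, against 6.85, 6.20 and 6.14 in WT SRBC. It was 6.70 and 6.57 in Notch2-11cKO untreated, against 5.98 and 5.84 in WT untreated. The genotypes did not overlap under either condition. Gclc was 1.87-fold higher in Notch2-11cKO SRBC than in WT SRBC (0.90 ± 0.20, adjusted p = 0.023, n = 3 each). That call was lost without Notch2-11cKO SRBC 1, Notch2-11cKO SRBC 2, WT SRBC 2 or WT SRBC 3 (adjusted p from 0.0644 to 0.0942) and with the stress score as a covariate (0.68, adjusted p = 0.117). The untreated difference was 0.72 ± 0.24 (adjusted p = 0.147). The SRBC responses were 0.66 ± 0.22 in Notch2-11cKO (adjusted p = 0.316) and 0.48 ± 0.22 in WT (adjusted p = 0.302).

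Gclm, at chr3:122245487-122267215, encodes the modifier subunit that raises the activity of the same ligase. The signal in log2 was 6.64 and 6.57 in Notch2-11cKO untreated, against 5.17 and 5.58 in WT untreated. It was 6.74, 6.89 and 7.52 in Notch2-11cKO SRBC, against 5.51, 6.50 and 6.49 in WT SRBC. No Notch2-11cKO array overlapped the WT arrays of the same treatment. The differences were 1.23 ± 0.35 untreated (adjusted p = 0.0733) and 0.88 ± 0.28 after SRBC (adjusted p = 0.109), neither past the threshold. The responses were 0.45 ± 0.32 in Notch2-11cKO (adjusted p = 0.707) and 0.79 ± 0.32 in WT (adjusted p = 0.223). The untreated difference is the same 1.23 without the 2 SRBC arrays that stood apart, and its adjusted p, with a smaller estimate of spread, was then 0.000739. In the same 8 arrays the difference after SRBC was 0.32 (adjusted p = 0.308). With the stress score as a covariate both differences passed, at 1.01 untreated (adjusted p = 0.029) and 1.40 after SRBC (adjusted p = 0.00499).

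Txnrd1, at chr10:82833951-82897724, encodes cytosolic thioredoxin reductase, which uses NADPH to keep thioredoxin reduced. Its log2 signal was 7.71, 7.50 and 8.93 in Notch2-11cKO SRBC, against 6.66 and 7.04 in Notch2-11cKO untreated. It was 7.08, 7.69 and 7.61 in WT SRBC, against 5.97 and 6.14 in WT untreated. All SRBC arrays exceeded the untreated arrays of their genotype. The responses were 1.19 ± 0.37 in Notch2-11cKO (adjusted p = 0.253) and 1.41 ± 0.37 in WT (adjusted p = 0.0602), and neither passed. The genotype differences were 0.80 ± 0.40 untreated (adjusted p = 0.41) and 0.59 ± 0.33 after SRBC (adjusted p = 0.409). Without the 2 arrays that stood apart, the WT response was 1.60 (adjusted p = 0.000175) and the genotype difference after SRBC was -0.05. The WT response also passed with quantile normalization (1.43, adjusted p = 0.0383) and over genes at or above the median level alone (adjusted p = 0.0421), and the genotype difference after SRBC passed with the stress score as a covariate (1.21, adjusted p = 0.0199).

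Srxn1, at chr2:152105524-152111376, encodes sulfiredoxin, which repairs overoxidised peroxiredoxins. It had the widest spread within groups of the 8 members, with a residual SD of 1.00, above that of 99.8% of genes. Log2 intensity was 6.75, 7.02 and 8.95 in Notch2-11cKO SRBC and 5.96 and 6.67 in Notch2-11cKO untreated. It was 5.46, 7.54 and 7.36 in WT SRBC and 5.36 and 5.96 in WT untreated. WT SRBC 1 lay within the untreated WT range, while the other 2 WT SRBC arrays lay far above it. No comparison of Srxn1 passed the threshold: the responses were 1.26 ± 0.68 in Notch2-11cKO (adjusted p = 0.593) and 1.13 ± 0.68 in WT (adjusted p = 0.458). The genotype differences were 0.66 ± 0.75 untreated and 0.78 ± 0.61 after SRBC (adjusted p = 0.826 and 0.591). Without the 2 arrays that stood apart the WT response was 1.80 (adjusted p = 0.000843) and the difference after SRBC was -0.57. With the stress score as a covariate the difference after SRBC was 2.00 (adjusted p = 0.0228). The slope of that covariate comes from spread within groups, where Notch2-11cKO SRBC 3 had the lowest score of its group (8.51) and the highest Srxn1. Gclm and Txnrd1 were also highest of the group in that array. Without Notch2-11cKO SRBC 3, and without the covariate, the Srxn1 difference after SRBC was 0.09.

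Prdx1, at chr4:116685599-116700000, encodes an abundant peroxiredoxin that reduces hydrogen peroxide with electrons from thioredoxin. The log2 intensities were 10.92, 10.66 and 11.15 in Notch2-11cKO SRBC, against 9.22, 10.12 and 10.31 in WT SRBC. It was 11.01 and 10.71 in Notch2-11cKO untreated, against 9.68 and 10.01 in WT untreated. Every Notch2-11cKO array exceeded every WT array. Prdx1 was 2.04-fold higher in Notch2-11cKO SRBC than in WT SRBC (1.03 ± 0.26, adjusted p = 0.0421, n = 3 each), and the untreated difference was 1.01 ± 0.32 (adjusted p = 0.113). The call after SRBC was close to the threshold: it was lost under 8 of the 10 single-array omissions (adjusted p from 0.0603 to 0.116) and when arrays were centred on their medians (adjusted p = 0.0602). Treatment differences were 0.05 ± 0.29 in Notch2-11cKO (adjusted p = 0.977) and 0.03 ± 0.29 in WT (adjusted p = 0.976). A further probe set of Prdx1 gave genotype differences of 0.92 untreated and 1.07 after SRBC.

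Nqo1, at chr8:107388225-107403205, encodes a quinone reductase that is widely used as a readout of NRF2 activity. Its log2 intensity was 3.00, 3.39 and 3.68 in Notch2-11cKO SRBC and 2.95 and 2.98 in Notch2-11cKO untreated. It was 2.98, 3.28 and 3.11 in WT SRBC and 3.28 and 2.98 in WT untreated. All 10 arrays lay within 0.73, and the SRBC groups overlapped, while both Notch2-11cKO untreated arrays lay just below both WT untreated ones. It was the only member below the median gene's mean level, 5.06. Its genotype differences were -0.17 ± 0.19 untreated and 0.23 ± 0.16 after SRBC (adjusted p = 0.828 and 0.518). Its responses were 0.39 ± 0.18 in Notch2-11cKO and -0.01 ± 0.18 in WT (adjusted p = 0.497 and 0.986). No detection call was available, so whether this signal is above background was not tested.

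**Figure D2:**
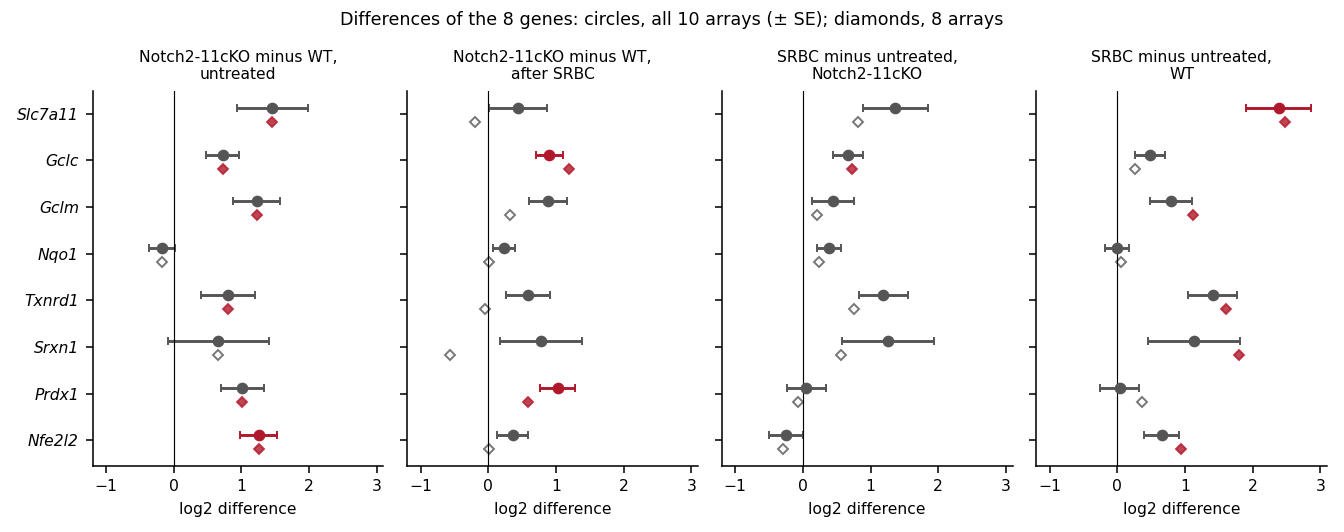
Log2 difference of each gene in each comparison; circles are all 10 arrays with bars of ± 1 SE, diamonds the 8 arrays left without Notch2-11cKO SRBC 3 and WT SRBC 1, and red marks an adjusted p from limma below 0.05. With all arrays the red circles are Nfe2l2 at 1.26 (untreated genotypes), Gclc at 0.90 and Prdx1 at 1.03 (genotypes after SRBC), and Slc7a11 at 2.38 (SRBC response in WT).

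Counted together, 1 of the 8 members was higher past the threshold in Notch2-11cKO untreated than in WT untreated and 0 were lower, against 2.95% and 2.16% of all genes. In that comparison no member's groups overlapped: 7 of the 8 were higher without overlap, against 22% of all genes, and Nqo1 was lower without overlap, against 26.8%. The median member difference was 0.91, against -0.02 over all genes. After SRBC, 2 members were higher and 0 lower in Notch2-11cKO, against 3.36% and 1.96% of genes. Here 3 members were higher without overlap, against 9.96% of genes, and 0 lower, against 10.4%, with a median difference of 0.68, against -0.02. All 8 differences were above 0 after SRBC, as were 7 untreated.

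The SRBC response in Notch2-11cKO gave 0 members past the threshold in either direction by limma, where 0.14% of genes were higher and 0.166% lower; 4 members were higher and 0 lower at an unadjusted p below 0.05. In the same comparison 6 members were higher without overlap, against 16.1% of genes, and Nfe2l2 was lower without overlap, against 12.2%. The median member difference was 0.56, against 0.03. The WT response gave 1 member higher and 0 lower, against 1.82% and 1.97% of genes, with 3 members higher without overlap, against 17.8%, and 0 lower, against 15.7%. Its median was 0.72, against 0.02 over all genes. For the difference between the 2 responses 0 members passed, against 0.01% of genes higher and 0.01% lower, with 0 members higher and 1 lower at an unadjusted p below 0.05. These comparisons share arrays: each group enters both a genotype and a treatment comparison.

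The 2 arrays that stood apart did so in opposite ways for these genes. Notch2-11cKO SRBC 3 was the highest of its group for 7 of the 8 members and the lowest for Gclc. WT SRBC 1 was the lowest of its group for 7 of the 8 and the highest for Gclc. Srxn1 in Notch2-11cKO SRBC 3 lay 2.07 above the mean of the other 2 arrays, a gap exceeding that of 99.8% of genes, and Slc7a11 and Txnrd1 lay 1.65 and 1.33 above (99.6% and 99.3%). Srxn1 in WT SRBC 1 lay -1.99 from the mean of the other 2, lower than all but 0.1% of genes, with Prdx1 at -0.99, Gclm at -0.98 and Nfe2l2 at -0.88.

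**Figure D3:**
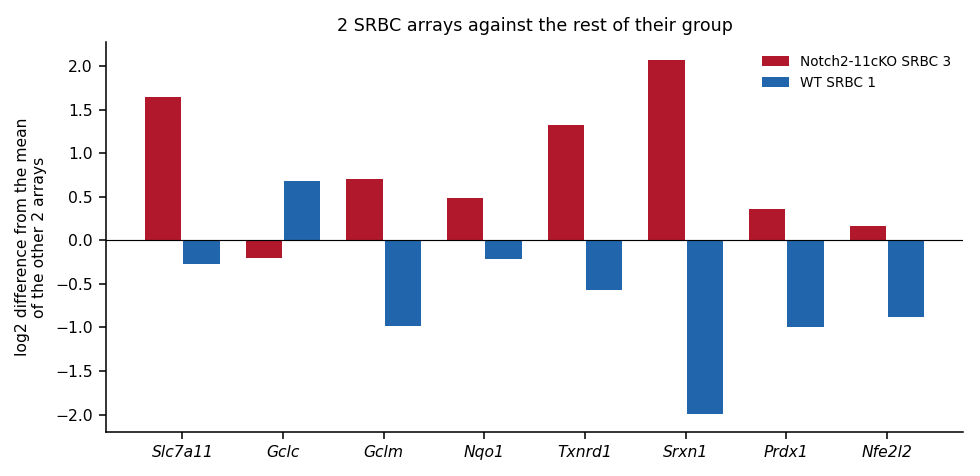
Log2 difference of each gene in Notch2-11cKO SRBC 3 (red) and WT SRBC 1 (blue) from the mean of the other 2 arrays of the group. Red bars are above 0 and blue bars below 0 for every gene but Gclc, with Srxn1 at 2.07 and -1.99.

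With both of these arrays left out (a choice made after seeing the data, which lowers the estimate of spread by construction), 6 members were past the threshold between untreated genotypes, all but Nqo1 and Srxn1, against 10% of all genes in either direction. In the same fit 2 members passed after SRBC, Gclc at 1.20 (adjusted p = 0.000569) and Prdx1 at 0.58 (adjusted p = 0.0424), against 11.9% of genes. The Notch2-11cKO response had 1, Gclc at 0.73 (adjusted p = 0.0427), against 2% of genes. The WT response had 5, Slc7a11, Gclm, Txnrd1, Srxn1 and Nfe2l2, with log2 differences of 2.47, 1.12, 1.60, 1.80 and 0.94, against 11.5% of genes.

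Around the members, 129 other genes of 7 pathway lists were measured. Between untreated genotypes 15 of them were higher and 7 lower in Notch2-11cKO, with a median difference of 0.08. After SRBC 23 were higher and 2 lower, with a median of 0.14. The Notch2-11cKO response had 0 in either direction (10 higher and 8 lower at an unadjusted p below 0.05), and the WT response had 1 higher and 5 lower, with a median of -0.08. The shares of all genes past the threshold in each comparison are those given above, and the macrophage and monocyte sums above differ between the same groups. The macrophage sum includes Hmox1, which is also on a pathway list.

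Of 32 genes that use or conjugate glutathione, 5 were higher and 0 lower in untreated Notch2-11cKO, and 6 and 0 after SRBC. Gstm1, a glutathione S-transferase, was 8.28 and 7.78 in Notch2-11cKO untreated, against 5.06 and 4.22 in WT untreated, a difference of 3.39 ± 0.48 (adjusted p = 0.00146). After SRBC it was 8.37, 8.55 and 9.22 in Notch2-11cKO, against 4.52, 5.61 and 6.14 in WT (3.29 ± 0.39, adjusted p = 0.000503). Every Notch2-11cKO array exceeded every WT array. Mgst1, a membrane-bound transferase, differed by 2.46 ± 0.36 untreated and 2.58 ± 0.30 after SRBC, and Gstm3 by 1.02 ± 0.15 and 1.08 ± 0.12. Near-identical Gstm genes may share signal between probe sets. Gsr, the reductase that returns oxidised glutathione to its reduced form, was higher by 0.86 ± 0.19 untreated (adjusted p = 0.0232) and 1.06 ± 0.16 after SRBC (adjusted p = 0.00199), and Abcc5, an exporter of glutathione conjugates, by 1.01 ± 0.19 and 0.88 ± 0.15. The peroxidases Gpx1 and Gpx4 did not pass in either comparison (0.36 and 0.35 untreated, 0.61 and 0.12 after SRBC). In WT untreated and WT SRBC, Mgst1 averaged 3.07 and 3.63, Gstm3 4.15 and 4.67, and Abcc5 4.74 and 4.86. These means lay below the median gene's 5.06, and whether such signals are above background was not tested.

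Of 23 other NRF2 targets, 5 were higher and 1 lower untreated, and 9 and 1 after SRBC. Ephx1, a microsomal epoxide hydrolase, was 8.39 and 7.74 in Notch2-11cKO untreated, against 4.35 and 4.79 in WT untreated, with a difference of 3.49 ± 0.31 (adjusted p = 6.27e-05). After SRBC the difference was 2.61 ± 0.25 (adjusted p = 0.000111). Hmox1, the haem oxygenase that is also on the red pulp macrophage list and whose gene BACH1 represses, was 10.64 and 10.51 in Notch2-11cKO untreated, against 7.34 and 7.44 in WT untreated (3.19 ± 0.43, adjusted p = 0.00104). After SRBC it was higher by 1.91 ± 0.35 (adjusted p = 0.00837). Blvrb, a biliverdin reductase, was higher by 1.56 ± 0.27 untreated and 1.64 ± 0.22 after SRBC, and Slc48a1, a haem transporter, by 1.60 ± 0.29 and 0.95 ± 0.24. The aldehyde reductase Akr1a1 was higher by 0.74 ± 0.17 and 0.80 ± 0.14, and the pentose phosphate enzyme Taldo1 was the gene lower in untreated Notch2-11cKO (-1.13 ± 0.27, adjusted p = 0.037). Cbr3, a carbonyl reductase, passed after SRBC (1.22 ± 0.21, adjusted p = 0.00504). Lrp8, a lipoprotein receptor, ran the other way: it was 7.14, 6.90 and 7.65 in Notch2-11cKO SRBC, against 8.34, 9.08 and 9.09 in WT SRBC (-1.61 ± 0.25, adjusted p = 0.00278), and it rose with SRBC in WT (2.08 ± 0.28, adjusted p = 0.00251).

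Of 11 other genes of cystine uptake and glutathione synthesis, 0 were higher in any comparison and 2 were lower in untreated Notch2-11cKO. Slc3a2, the heavy chain that carries xCT to the cell surface, was 9.43 and 9.24 in Notch2-11cKO untreated, against 10.49 and 10.43 in WT untreated (-1.13 ± 0.29, adjusted p = 0.0465). For its partner Slc7a11 the same difference was 1.46 and did not pass (adjusted p = 0.181). Ggt5, a gamma-glutamyl hydrolase of extracellular glutathione conjugates, was lower by -1.11 ± 0.18 (adjusted p = 0.00328), and fell with SRBC in WT by 1.23 (adjusted p = 0.00249).

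Of 15 regulators of NRF2, Bach2 was higher in Notch2-11cKO both untreated (1.13 ± 0.25, adjusted p = 0.026) and after SRBC (0.87 ± 0.21, adjusted p = 0.0339). Its means of 4.65 in WT untreated and 4.87 in WT SRBC lay below the median gene's 5.06. Bach1, the repressor of the same elements, was 8.13 and 8.05 in Notch2-11cKO untreated, against 8.94 and 8.88 in WT untreated (-0.82 ± 0.20, adjusted p = 0.0328). With SRBC in WT it fell by 1.10 (adjusted p = 0.0068), to 7.95, 7.82 and 7.69, and no WT SRBC array overlapped a WT untreated one. Keap1, the NRF2 adaptor for degradation, differed by 0.26 untreated and 0.14 after SRBC (adjusted p = 0.616 and 0.708).

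Of 15 genes of the thioredoxin and peroxiredoxin system, 2 were higher and 2 lower untreated, and 3 and 1 after SRBC. The methionine sulfoxide reductase Msrb1 was higher by 1.32 ± 0.30 untreated (adjusted p = 0.0292) and 1.04 ± 0.25 after SRBC (adjusted p = 0.0332). The other higher gene untreated was Txnrd3, a testis-rich thioredoxin reductase (0.66 ± 0.17, adjusted p = 0.0497). Its means, 4.36 against 3.70 in WT untreated, lay below the median gene's 5.06. The call held under 1 of the 10 single-array omissions. Cytosolic thioredoxin Txn1 and mitochondrial Txn2 passed after SRBC, at 0.69 ± 0.13 and 0.79 ± 0.20 (adjusted p = 0.0111 and 0.0398). The stress-induced sestrins Sesn2 and Sesn3 were lower in untreated Notch2-11cKO, at -1.07 ± 0.24 and -1.17 ± 0.25 (adjusted p = 0.0264 and 0.0187), and Sesn3 also after SRBC (-0.95 ± 0.20, adjusted p = 0.0203).

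Of 10 genes of superoxide and hydrogen peroxide handling, 1 was higher and 1 lower untreated, and 3 and 0 after SRBC. Cybb, the catalytic subunit of the phagocyte NADPH oxidase, was higher in Notch2-11cKO by 1.29 ± 0.32 untreated (adjusted p = 0.0383) and 1.87 ± 0.26 after SRBC (adjusted p = 0.00137). The mitochondrial dismutase Sod2 and the extracellular Sod3 passed after SRBC, at 1.52 ± 0.34 and 0.77 ± 0.19 (adjusted p = 0.0246 and 0.0441). The mean of Sod3 was 5.34 in Notch2-11cKO SRBC, against 4.58 in WT SRBC, which lay below the median gene's 5.06. Rac2, a GTPase that activates that oxidase, was lower by -1.17 ± 0.24 untreated (adjusted p = 0.0149) and fell with SRBC in WT by 1.45 (adjusted p = 0.0044).

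Of 23 genes of the ATF4 amino acid response, a separate route that is known to induce Slc7a11, 1 was higher and 0 lower in each genotype comparison. These were Cebpg, a partner of ATF4, untreated (1.19 ± 0.28, adjusted p = 0.0312) and the tryptophanyl-tRNA synthetase Wars after SRBC (0.77 ± 0.19, adjusted p = 0.0411). In the WT response 2 genes of this list fell past the threshold and 0 rose. Atf4 was 8.78, 8.86 and 8.73 in WT SRBC, against 9.66 and 9.47 in WT untreated, and fell by 0.78 (adjusted p = 0.0227). Slc7a5, an amino acid transporter, fell by 0.95 (adjusted p = 0.00816). Both calls were lost when either WT untreated array was left out, and that of Atf4 also without WT SRBC 2 or WT SRBC 3. Whether this route had a part in the level of Slc7a11 was not tested.

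**Figure D4:**
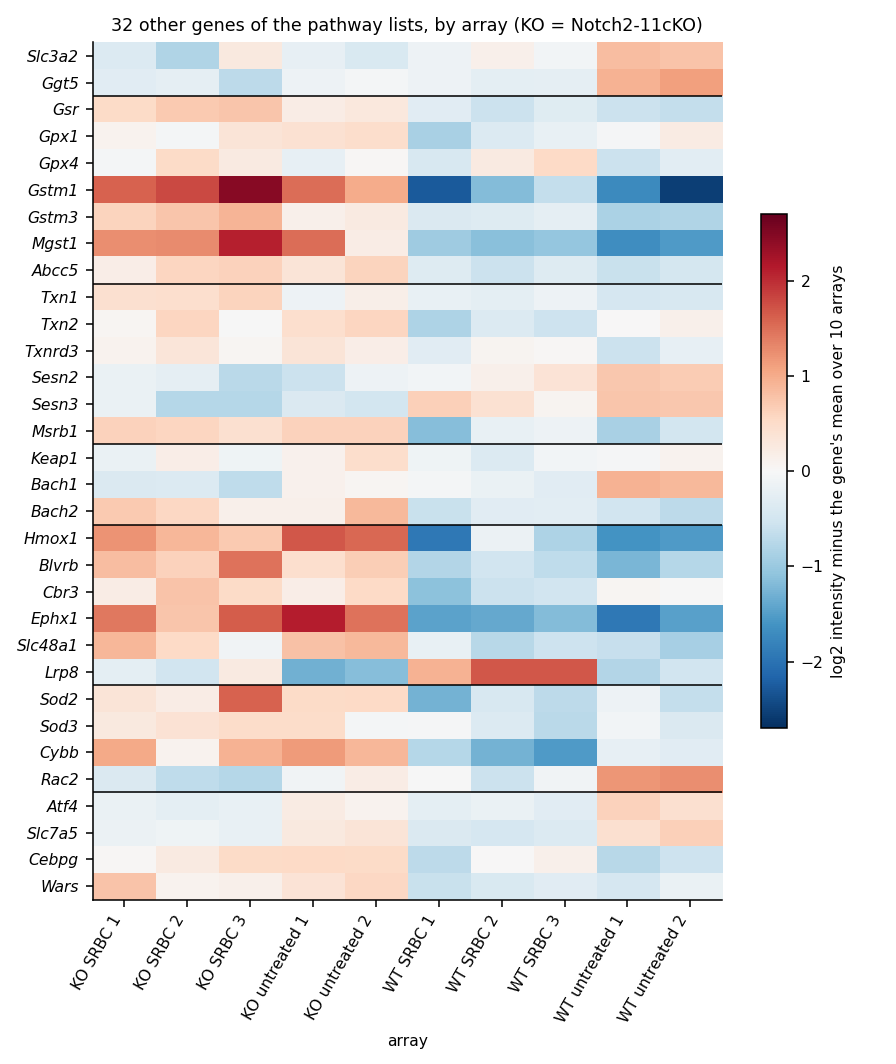
Log2 intensity of 32 pathway genes (down) in the 10 arrays (across, in their groups), each gene centred on its own mean; red is above and blue below that mean. Gstm1, Ephx1, Hmox1 and Mgst1 are above their means in all 5 Notch2-11cKO arrays, and Bach1 and Atf4 are highest in the 2 WT untreated arrays.

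Many of these calls rest on the few untreated arrays. Of the 22 untreated genotype calls among the other pathway genes, 6 held whichever single array was left out: Ephx1, Ggt5, Gstm1, Gstm3, Hmox1 and Mgst1. The largest losses came with the omission of an untreated array, which leaves 1 array in its group and also cut the calls over all genes. Calls named above that held under the fewest of the 10 single-array omissions were Txnrd3 (1) and Slc3a2 (3) untreated. After SRBC they were Txn2 (1), Wars and Slc48a1 (2), and Bach2 and Sod3 (3). Of the 25 calls after SRBC, 12 held throughout, among them Gstm1, Mgst1, Gsr, Ephx1, Hmox1, Blvrb, Cybb and Lrp8, and 15 held without WT SRBC 2, the fewest of any omission. Over all genes the calls after SRBC fell from 1061 to 684 without WT SRBC 2. Of the 6 calls in the WT response, Ggt5 held under every single-array omission. The others were lost without WT untreated 1, and all of those but Lrp8 also without WT untreated 2. With the stress score as a covariate 0 of the 6 held, where 2 of all 19938 genes passed, against 756 in the main fit.

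Likeness to each member was measured over the 10 arrays as the root-mean-square difference in log2 after each gene was centred on its own mean, among genes at or above the median level. Slc7a11 was closest to Mmp25 (0.364), Tnfaip2 (0.411) and the member Txnrd1 (0.427). Txnrd1 was closest to Eid3 (0.123), Rapgef2 (0.199) and Gprc5a (0.291), and Srxn1 to Lrrc32 (0.361), Procr (0.372) and Thbs1 (0.398). Gclc was closest to Niban1 (0.161), Slc26a2 (0.203) and Tmbim4 (0.208), and Gclm to Capn2 (0.144), Nucb2 (0.187) and Arhgap21 (0.192). Prdx1 was closest to Tmco1 (0.184), Msrb1 (0.186) and Metrnl (0.202), and Nfe2l2 to Cebpg (0.177), Tmem65 (0.178) and Jup (0.189). These distances describe 10 arrays that share groups and preparation. Whether the probe set of any of these genes shares signal with that of a member was not tested. Nqo1, whose group means span 0.39, was not ranked.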

How the data were processed

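Transcripts of cDC2 were measured on 10 one-colour Affymetrix Mouse Gene ST arrays, labelled with the Ambion WT Expression kit per the labels' protocols. The deposited table gives linear-scale intensity; the authors' background correction and normalization are not given in the sources used here, and array medians (29.5 to 31.7) are close. The table held 28853 probe sets; 21789 named 1 gene symbol, 1621 several and 5443 none. Values were log2 transformed, and 19938 genes were each represented by their brightest probe set on average (999 genes had more than 1). Without detection p-values, nothing was called above background. The labels do not say that replicates came from separate mice, so p-values measure the spread between these arrays, which may be technical.

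A single limma model (lmFit and trended eBayes, on 6 residual plus 5.25 prior degrees of freedom) held a mean for each of the 4 groups. It gave the genotype difference (Notch2-11cKO minus WT) with and without SRBC, the SRBC response (SRBC minus untreated) of each genotype, and the difference of the responses (Notch2-11cKO minus WT). Tests were two-sided, with Benjamini-Hochberg adjustment over all genes and a threshold of 0.05. The fit was tested on simulated data. The members, pathway lists and marker lists were chosen with earlier results of these data known. Genes named were the members; up to 4 other genes past the threshold per pathway list and comparison, smallest adjusted p first; Keap1, Bach1, Slc3a2, Gsr, Gpx1, Gpx4, Txn1, Hmox1, Atf4 and Notch2 whatever their p; and the 3 genes most like each member whose group means spanned at least 1. Akr1a1, Taldo1 and the marker genes named beside small counts were chosen after their values were seen. Of 137 other pathway genes 8 were not analysed here, as was the promoter of Gclc. Promoter windows were matched by symbol. The alternatives averaged all probe sets of a gene or used only genes at or above the median level, quantile normalization, array centring, an untrended variance, a covariate of immediate-early and heat shock genes, the replicate number as a block, and the omission of each single array. Omitting the pair of arrays that stood apart was added after seeing the data. The labels state no pairing, so the main fit used no block. Same-numbered arrays of different groups deviated together at r between -0.22 and 0.48 over 13 pairs, which does not settle whether they were handled together. The software was limma 3.58.1 in R 4.3.3, and in Python 3.11.15 the packages matplotlib 3.10.9, pandas 2.3.3 and NumPy 2.4.6.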

Additional observations from a re-analysis of the deposited data

How the results depend on the processing

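The number of members past the threshold was 1 between untreated genotypes, 2 between genotypes after SRBC, 0 for the Notch2-11cKO response, 1 for the WT response and 0 for the difference of responses. Between untreated genotypes it became 2 with the stress score as a covariate, where 6.08% of all genes passed. It became 2 with the replicate number as a block (5.89%) and 6 without both arrays that stood apart (10%). It was 1 to 4 with 1 SRBC array left out (4.46% to 6.97%), against 5.11% of genes in the main fit. Omitting any untreated array ended the Nfe2l2 call, as given above. The labels do not say whether the replicate numbers pair the arrays. With the block, Gclm passed in limma both untreated (adjusted p = 0.0151) and after SRBC (adjusted p = 0.0273). After SRBC it became 1 with centring (5.27% of genes), 4 with the covariate (5.3%) and 3 with the block (6.62%). With 1 SRBC array left out it was 0 to 2 (3.26% to 6.3%), against 5.32% of genes in the main fit. The WT response gave 2 with only genes at or above the median level (9.23% of those genes), 2 with quantile normalization (3.91%) and 0 with the covariate (0.01%). It gave 5 without both arrays that stood apart (11.5%) and 0 to 4 with 1 SRBC array left out (1.94% to 6.68%). In the main fit 3.79% of genes passed. Without both arrays that stood apart, the Notch2-11cKO response gave 1 (2% of genes, against 0.306% in the main fit). The difference of responses then gave 1 (3.03% of genes, against 0.0201%). That setting turned Slc7a11 (-0.20), Txnrd1 (-0.048) and Srxn1 (-0.57) after SRBC, Prdx1 in the Notch2-11cKO response (-0.068), Nqo1 in the WT response (0.059), and Srxn1 (-1.23) and Prdx1 (-0.43) in the difference of responses. With the covariate, whose values separate SRBC from untreated arrays, the Notch2-11cKO response was -0.30 for Slc7a11, -0.84 for Gclm, -0.24 for Nqo1, -0.36 for Txnrd1, -1.79 for Srxn1 and -0.82 for Prdx1. The WT response was then -0.23 for Slc7a11, -1.23 for Gclm, -1.03 for Txnrd1, -3.65 for Srxn1, -1.34 for Prdx1 and -0.18 for Nfe2l2, and the difference of responses was -0.13 for Gclc, 0.39 for Gclm and 0.67 for Txnrd1. The block turned Prdx1 to -0.11 in the Notch2-11cKO response and -0.13 in the WT response, and centring turned its difference of responses to -0.004. With 1 array left out, Slc7a11 after SRBC ranged from -0.11 to 0.91, Prdx1 from -0.10 to 0.20 in the Notch2-11cKO response and -0.18 to 0.36 in the WT response, and Nqo1 in the WT response from -0.16 to 0.14. The difference of responses ranged from -0.66 to 0.058 for Txnrd1, -0.56 to 0.54 for Srxn1 and -0.31 to 0.23 for Prdx1. The cause of these shifts was not tested. With 2 or 3 arrays a group, leaving 1 out can leave a single array, which is then assumed to vary like the others. Over all members, comparisons and alternatives, 623 values kept direction and side of the threshold, 28 passed it newly, 22 lost it and 42 turned; the turned values include 1 call, Slc7a11 in the WT response with the covariate, so 23 calls were lost in all.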
